A study of Mus musculus with 8 samples.

Results

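The Fc receptor genes described here are Fcgr1, Fcgr2b, Fcgr3, Fcer1g and Fcgrt, 5 of the 17700 genes listed for mouse cerebellum. They were selected on a named list of receptors for the constant (Fc) part of antibodies, proposed with their old and young levels in view, so every old and young value of theirs below is a description and carries no test. Fcgr1, Fcgr3 and Fcgr2b encode the cell-surface IgG receptors CD64, CD16 and CD32B, and Fcer1g encodes the FcR gamma chain. Fcgrt encodes the neonatal Fc receptor FcRn, which is built like an MHC class I heavy chain. All 5 genes had enough counts to enter the test across genes.

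Total RNA, depleted of ribosomal RNA, was sequenced from the cerebellum of 8 C57BL/6JN mice, an inbred laboratory strain. The old group held 4 mice, old 1 (male, 93 weeks), old 2 (female, 83 weeks), old 3 (male, 83 weeks) and old 4 (female, 102 weeks). The young group held 4 mice, young 1 and young 2 (males, 19 weeks), young 3 (female, 19 weeks) and young 4 (female, 22 weeks). The labels name no other allele or treatment, and each library carries an animal's own age and sex. The study's title relates changes with age to hydroxymethylated DNA in gene bodies, and its design text names liver and other ages, so tissue and age were taken from the sample labels.

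An Fc receptor ties an antibody-coated target to the cell that carries it. On microglia, the resident macrophages of the brain, and on other myeloid cells, Fcgr1 and Fcgr3 are activating receptors that signal through the tyrosine-based activation motif of the FcR gamma chain and the kinase Syk, and lead to phagocytosis. Fcgr2b carries an inhibitory tyrosine motif that recruits the lipid phosphatase Inpp5d (SHIP1) and damps the same signal. FcRn works differently: with the light chain B2m it binds IgG and albumin in acidic endosomes and returns them to the surface, and it is well known from vascular endothelium, choroid plexus and other epithelia as well as from myeloid cells.

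Total counts ran between 6132312 and 6784584 in old libraries and between 6079485 and 7236720 in young ones, and 3 counts stood for 0.421 to 0.511 CPM, the depth-scaled count on library sizes adjusted by TMM. This floor and the counting intervals below cover counting error only. The labelled tissue was checked first. Granule neuron markers (9 of 9 listed) summed to between 4255 and 5911 CPM in old and between 4697 and 7245 CPM in young libraries, while 7 hepatocyte genes summed to between 2.84 and 84.2 CPM in old and between 0.682 and 21.2 CPM in young libraries. Old 2, old 3 and young 4 held the most hepatocyte transcripts, at 84.2, 23.6 and 21.2 CPM. Old 4 stood apart in myeloid transcripts: the 15 microglia markers summed to 514 CPM there, against 327, 312 and 276 CPM in old 1, old 2 and old 3. In these bulk samples fewer cells of a type and less RNA per cell cannot be told apart, so every level of a myeloid gene joins the number of such cells and their content.

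Fcgr2b, Fcgr3 and Fcer1g lie on chromosome 1 in GRCm38, at 170958617 to 170976547, 171051174 to 171064935 and 171229572 to 171234365. Fcgr4, the remaining classical IgG receptor gene of the mouse, lies between Fcgr2b and Fcgr3 at 171018920 to 171029761. Fcgr1 lies on chromosome 3 at 96282909 to 96293969 and Fcgrt on chromosome 7 at 45092990 to 45103851. All 5 members are on the minus strand, and these are whole gene spans, exons and introns together, from GENCODE M21. Fcgr2b and Fcgr3 are close in sequence: 9.58% of the 50-base stretches of Fcgr3 transcripts also occur in Fcgr2b, and 6.95% of those of Fcgr2b occur in Fcgr3 or another gene. Fcgr1, Fcer1g and Fcgrt share no 50-base stretch with another annotated transcript. An antisense gene overlaps the span of Fcgr2b (Gm38204) and that of Fcgrt (Gm45669). The strand setting of the counting is not given, so reads from 50-base stretches common to Fcgr2b and Gm38204 cannot be told apart. Transcripts of Fcgrt have no such stretch in common with Gm45669.

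The start-site windows of Fcgr1, Fcgr3 and Fcgr2b are shown because these 3 IgG receptor genes are the ones set against each other below, and because the first 2 share a run of bases around a PU.1 core. PU.1 (Spi1) is the transcription factor that defines myeloid cells, and it binds purine-rich sites with the core GAGGAA. Each window holds 250 bases before and 50 bases after the start, read 5′ to 3′ on the gene's strand from RefSeq on GRCm38.p6, and all 5 members matched that table by symbol. The windows are chr3:96293920-96294219 for Fcgr1, chr1:171059354-171059653 for the first of the listed Fcgr3 starts and chr1:170976022-170976321 for Fcgr2b, all on the minus strand. Capitals mark the PU.1 core GAGGAA on either strand (TTCCTC here) and the GAS motif TTCNNNGAA of interferon gamma response.
Fcgr1: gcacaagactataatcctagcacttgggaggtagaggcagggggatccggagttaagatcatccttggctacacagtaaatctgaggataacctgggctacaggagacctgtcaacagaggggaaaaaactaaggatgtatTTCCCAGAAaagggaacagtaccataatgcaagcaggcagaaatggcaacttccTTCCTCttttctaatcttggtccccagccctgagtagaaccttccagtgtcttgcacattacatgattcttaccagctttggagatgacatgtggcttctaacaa
Fcgr3: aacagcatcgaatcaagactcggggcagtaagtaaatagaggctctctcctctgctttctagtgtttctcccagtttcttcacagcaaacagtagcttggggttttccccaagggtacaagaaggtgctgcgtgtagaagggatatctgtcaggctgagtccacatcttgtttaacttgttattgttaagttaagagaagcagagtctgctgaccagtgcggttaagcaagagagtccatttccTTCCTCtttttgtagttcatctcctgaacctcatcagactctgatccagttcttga
Fcgr2b: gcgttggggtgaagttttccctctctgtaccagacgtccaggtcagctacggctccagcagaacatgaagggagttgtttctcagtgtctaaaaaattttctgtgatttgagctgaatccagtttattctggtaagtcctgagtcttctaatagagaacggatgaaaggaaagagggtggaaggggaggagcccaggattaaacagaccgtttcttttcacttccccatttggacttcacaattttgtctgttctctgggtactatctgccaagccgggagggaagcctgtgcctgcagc

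The Fcgr1 window held the PU.1 core from base -55 and the GAS motif from base -109 relative to the start, and the Fcgr3 window held the PU.1 core from base -6. The windows of Fcgr2b, Fcer1g and Fcgrt held neither motif. No member window held the core of the interferon-stimulated response element. Among 32851 windows in the table, 28.3% held the PU.1 core, 8.30% the GAS motif and 3.44% the interferon element, all searched on both strands with no overlap between motifs in the windows shown. The longest run common to the Fcgr1 and Fcgr3 windows was 14 bases, ttccttcctctttt, which contains the core in both. It began at base -59 in Fcgr1 and at base -10 in Fcgr3, and was found in 5 of 32851 windows, belonging to 4 genes. The longest runs common to the other pairs of members were 8 or 9 bases. These matches describe letters only and were looked for after the windows had been seen.

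Of the activating receptors, Fcgr1 had the smaller difference between the ages. It had 27, 20, 26 and 41 counts in old 1 to old 4, or 4.33, 2.88, 4.09 and 6.47 CPM, against 26, 20, 19 and 27 counts in young 1 to young 4, or 4.03, 3.14, 3.24 and 3.79 CPM. The groups overlapped, with old 2 the lowest and old 4 the highest of all 8 libraries. Means were 4.44 ± 1.49 CPM in old and 3.55 ± 0.431 CPM in young mice (SD, n = 4 each), and the fitted log2 fold change, old minus young, was 0.31 ± 0.28 (SE). Without old 4 it was 0.03. Counting alone would give an SD of 0.827 CPM in old and 0.746 CPM in young mice.

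Fcgr3 was the member whose old and young values did not overlap. Its counts were 41, 51, 43 and 117 in old 1 to old 4, at 6.58, 7.34, 6.76 and 18.5 CPM, against 29, 31, 33 and 24 in young 1 to young 4, at 4.50, 4.86, 5.62 and 3.37 CPM. Old 4 stood far above the other 3 old libraries, which lay close together just above the highest young library. Means were 9.79 ± 5.79 CPM in old and 4.59 ± 0.939 CPM in young mice (SD, n = 4 each), with a log2 fold change of 1.08 ± 0.35 (SE). Without old 4 the old mean was 6.89 ± 0.398 CPM (SD, n = 3) and the log2 fold change 0.60. Of 14191 genes tested, 3.15% had all 4 old values above all 4 young values, and 1 of the 5 members did. The members were chosen on this contrast, so nothing is read from that share.

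Fcgr2b, the inhibitory receptor, had the highest old to young ratio of the 5. It had 28, 40, 24 and 95 counts in old 1 to old 4, at 4.49, 5.76, 3.77 and 15.0 CPM, against 16, 15, 25 and 16 counts in young 1 to young 4, at 2.48, 2.35, 4.26 and 2.24 CPM. Old 4 was again the highest, and young 3 lay above old 3, so the groups overlapped. Means were 7.25 ± 5.22 CPM in old and 2.83 ± 0.956 CPM in young mice (SD, n = 4 each). The log2 fold change was 1.34 ± 0.39 (SE), and 0.81 without old 4, where the old mean was 4.67 ± 1.004 CPM (SD, n = 3).

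Fcer1g, the signalling chain, was high in old 1 and old 4 only among the old libraries. Its counts were 33, 21, 16 and 45 in old 1 to old 4, at 5.29, 3.02, 2.52 and 7.10 CPM, against 16, 16, 12 and 22 in young 1 to young 4, at 2.48, 2.51, 2.05 and 3.09 CPM. Old 2 and old 3 lay within the young range. Means were 4.48 ± 2.12 CPM in old and 2.53 ± 0.427 CPM in young mice (SD, n = 4 each), with a log2 fold change of 0.79 ± 0.35 (SE), or 0.46 without old 4. At 12 counts in young 3, the lowest of any member, the exact 95% counting interval was 6.20 to 21.0 counts.

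Fcgrt did not share this pattern. It had 112, 132, 102 and 139 counts in old 1 to old 4, at 18.0, 19.0, 16.04 and 21.9 CPM, against 139, 145, 126 and 110 counts in young 1 to young 4, at 21.6, 22.7, 21.5 and 15.4 CPM. The ranges coincided almost fully, and the lowest value was that of young 4. Means were 18.7 ± 2.46 CPM in old and 20.3 ± 3.30 CPM in young mice (SD, n = 4 each), with a log2 fold change of -0.11 ± 0.15 (SE). Counting alone would give an SD of 1.71 CPM in old and 1.77 CPM in young mice. Fcgrt is thus the best counted member, with 1005 counts over the 8 libraries, against 369 for Fcgr3, 259 for Fcgr2b, 206 for Fcgr1 and 181 for Fcer1g.

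**Figure D1:**
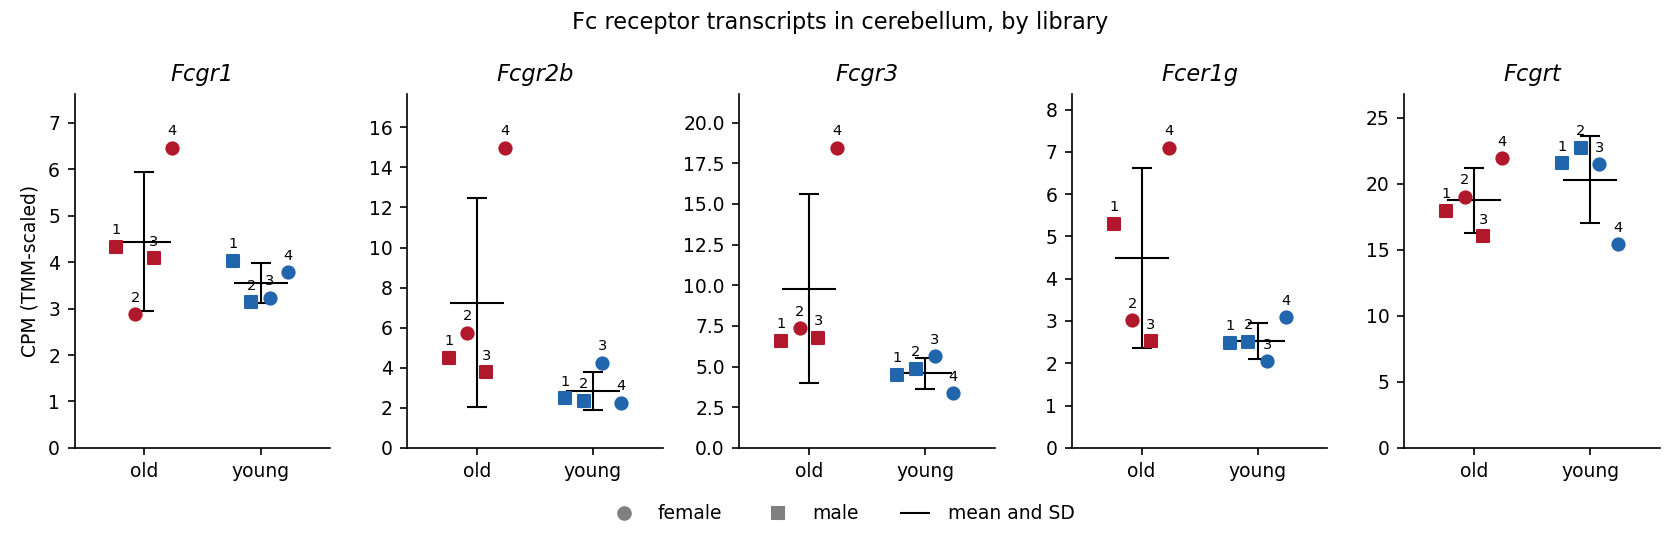
CPM of each Fc receptor gene in every library, old left of young, with circles for females, squares for males, the replicate number above each point and bars for the group mean and SD (n = 4). Old 4 is the highest library for Fcgr1, Fcgr2b, Fcgr3 and Fcer1g, and only for Fcgr3 do the other 3 old libraries all lie above the young ones.

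With an adjusted p threshold of 0.05, edgeR's quasi-likelihood test for age called 0.120% of all 14191 genes and none of the members. Without old 2, old 3 and young 4, the libraries with the most hepatocyte transcripts, it called 184 genes, Fcgr2b and Fcer1g among them. Of the old mice, that fit kept only old 1 (93 weeks) and old 4 (102 weeks), where Fcer1g was highest. What raised the number of calls was not tested, and the share of genes tested is not given for that fit. The members were chosen with the age contrast known, so nothing is read from the calls of either fit. The median old minus young log2 fold change was 0.79 over the 5 members and -0.01 over all genes tested.

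Levels were compared between members per kilobase of annotated exon, the union over all isoforms. On this scale Fcgrt was the most abundant, at 8.91 ± 1.17 CPM per kb in old and 9.66 ± 1.57 CPM per kb in young mice (SD, n = 4 each). Fcgr3 followed at 5.64 ± 3.34 in old and 2.64 ± 0.541 CPM per kb in young mice, and Fcer1g at 5.13 ± 2.43 and 2.90 ± 0.489 CPM per kb. These 2 were not ordered, since Fcgr3 was the higher of them in 4 of 8 libraries. Fcgr1 stood at 1.72 ± 0.577 in old and 1.37 ± 0.167 CPM per kb in young mice, below Fcer1g in 8 of 8 libraries. Fcgr2b was lowest at 1.25 ± 0.902 in old and 0.490 ± 0.165 CPM per kb in young mice, and lay below Fcgr1 in 7 of 8 libraries, the exception being old 4. Fcgrt exceeded Fcgr3 in 7 of 8 libraries, again with old 4 as the exception. The union of exons is 5.79 kb for Fcgr2b and 0.874 kb for Fcer1g, so a gene whose long isoform is little used is understated here.

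**Figure D2:**
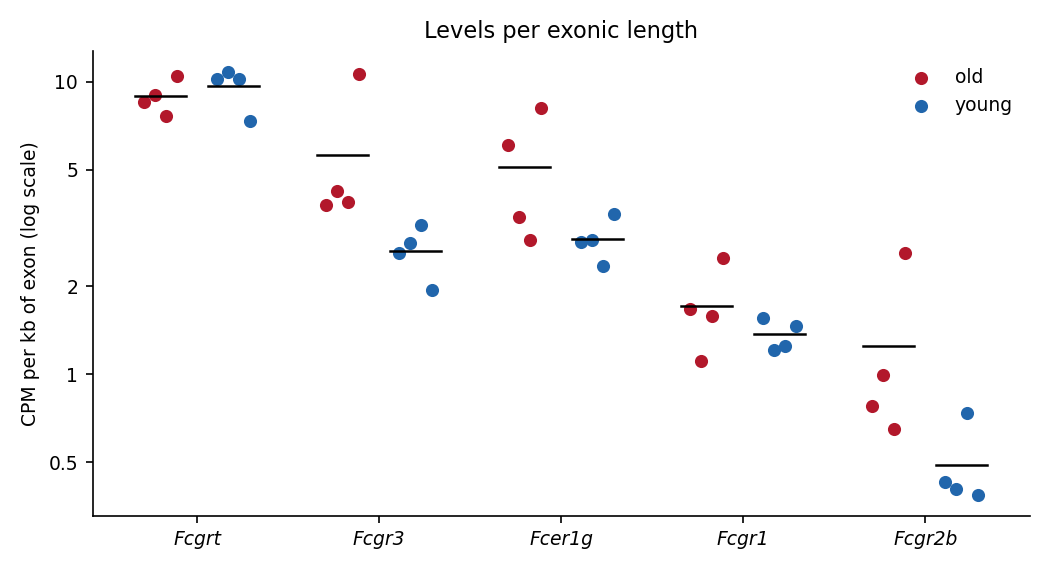
Levels of the 5 genes in CPM per kb of annotated exon on a log axis, ordered by their mean, with 1 point per library, old left of young, and lines at the group means. Fcgrt is the highest gene in every library except old 4, Fcgr3 and Fcer1g overlap throughout, and Fcgr2b spans the widest range, from 0.388 to 2.59 CPM per kb.

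The balance of inhibitory to activating receptor was followed as a ratio of counts within each library, which needs no scaling. The ratio of Fcgr2b to the sum of Fcgr1 and Fcgr3 was 0.412, 0.563, 0.348 and 0.601 in old 1 to old 4, against 0.291, 0.294, 0.481 and 0.314 in young 1 to young 4. Young 3 lay above old 1 and old 3, so the groups overlapped, with means of 0.481 ± 0.121 in old and 0.345 ± 0.0912 in young mice (SD, n = 4 each). Fcgr2b over Fcgr3 stood at 0.709 ± 0.115 in old and 0.615 ± 0.121 in young mice, also with overlapping ranges. The ratio of Fcgr1 to Fcgr3 was 0.501 ± 0.153 in old and 0.811 ± 0.251 in young mice, from 0.350 in old 4 to 1.13 in young 4. The ratio of Fcer1g to the activating receptors was 0.324 ± 0.111 in old and 0.317 ± 0.0841 in young mice, highest in old 1 at 0.485.

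Across the 8 libraries Fcgr2b and Fcgr3 followed each other most closely of the 10 pairs. Pearson's r of their log2 CPM was 0.97 over 8 libraries, 0.94 for deviations from the age means and 0.89 over 7 libraries without old 4. These are descriptions over libraries that share depth and cell content, and the genes' similar sequences may share some reads. Fcgr1 correlated with Fcgr3 at 0.68 and with Fcgr2b at 0.62, but without old 4 these values were -0.15 and -0.24, so they rested on that library. Fcer1g correlated with Fcgr3 at 0.72 and with Fcgr2b at 0.73, and at 0.21 and 0.26 without old 4. With Fcgrt, r over 8 libraries ranged from 0.02 for Fcer1g to 0.32 for Fcgr3. For deviations from the age means it was 0.75 for Fcgr3, 0.63 for Fcgr2b, 0.24 for Fcer1g and 0.16 for Fcgr1.

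Set against the microglia markers, the IgG receptors kept different distances. The mean log2 CPM of the 15 markers, all of which were in the tables and had positive log2 fold changes, was 4.26 ± 0.32 in old and 3.58 ± 0.21 in young mice (SD, n = 4 each), a difference of 0.68. Their sum ran between 276 and 514 CPM in old and between 178 and 241 CPM in young libraries, so every old library lay above every young one, and the markers' part in the receptor values was not tested. Relative to that mean, Fcgr3 was at -1.07 ± 0.40 in old and -1.31 ± 0.16 in young mice on the log2 scale, a difference of 0.24, or 0.05 without old 4. Fcgr2b was at -1.56 ± 0.54 and -1.97 ± 0.32, a difference of 0.41, or 0.16 without old 4. Fcer1g stood at -2.11 ± 0.40 in old and -2.08 ± 0.40 in young mice, a difference of -0.03. Fcgr1 was at -2.07 ± 0.28 and -1.64 ± 0.37, lower by 0.43 relative to the markers in old mice, and Fcgrt at -0.02 ± 0.16 and 0.77 ± 0.19, lower by 0.79. Only for Fcgrt did these relative values not overlap between the ages. Its own mean log2 CPM differed by -0.11, and the rest is the 0.68 of the marker mean subtracted from it. Nothing particular to Fcgrt is therefore read from this gap.

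The correlation with the microglia mean over 8 libraries was 0.95 for Fcgr3, 0.93 for Fcgr2b, 0.76 for Fcer1g, 0.56 for Fcgr1 and 0.20 for Fcgrt. For deviations from the age means it was 0.91, 0.87, 0.56, 0.43 and 0.77 in the same order. Without old 4, over both ages together, it was 0.93, 0.85, 0.46, -0.13 and -0.08 in that order. Thus Fcgr3 and Fcgr2b tracked the microglia markers also among the other 7 libraries, whereas the value for Fcgr1 rested on old 4. Erythroid markers (5 of 5), transcripts of blood, followed them nearly as closely, with an r of 0.86 for Fcgr3 and 0.88 for Fcgr2b, and of 0.79 and 0.83 without old 4. They summed to between 62.6 and 125 CPM in old and between 45.9 and 79.9 CPM in young libraries, highest in old 4 and in young 3, and their part in the receptor values was not tested.

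**Figure D3:**
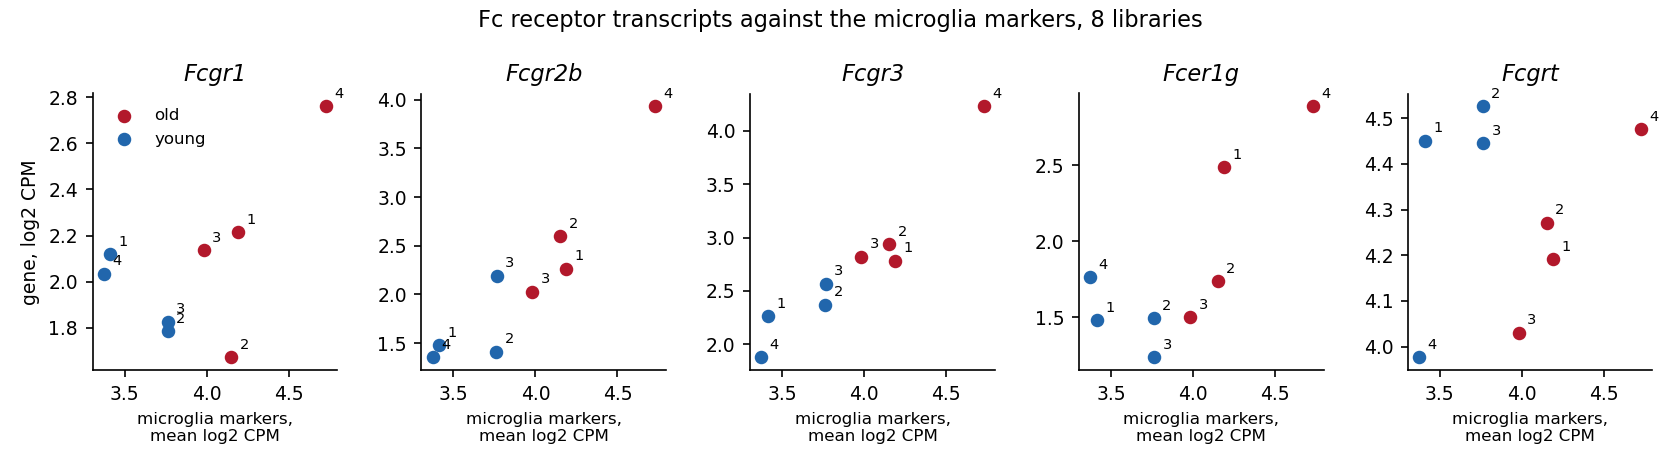
Log2 CPM of each gene against the mean log2 CPM of 15 microglia markers in the 8 libraries, coloured by age and numbered by replicate. Fcgr3 and Fcgr2b climb along the marker axis through the 8 points, and Fcer1g scatters more widely about such a line. Over both ages together, Fcgr1 and Fcgrt show no such line once old 4 is set aside. For deviations from the age means, r of Fcgrt with the markers was 0.77.

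Other cells that carry Fc receptors were also more abundant in transcripts in some old libraries. Neutrophil markers (7 of 8 listed were in the tables, each with more than 3 counts in all) summed to 17.5, 2.73, 2.04 and 15.5 CPM in old 1 to old 4, against 1.71, 0.157, 2.22 and 1.40 CPM in young 1 to young 4. Old 1 and old 4 thus held both the most neutrophil transcripts and the most Fcer1g, which neutrophils also express, and r of Fcer1g with these markers was 0.90, and 0.85 without old 4. Monocyte markers (6 of 6) summed to between 1.101 and 9.63 CPM in old and between 0.511 and 1.40 CPM in young libraries, highest in old 4, and Plac8 had at most 3 counts in all. The r of Fcer1g with the monocyte markers was 0.95, and 0.89 without old 4. These values rest on few counts. Monocyte markers had 112 counts in old and 23 in young libraries together, and neutrophil markers had 239 and 35. Only 1 monocyte marker and 3 neutrophil markers had enough counts for the test. Border macrophage markers (10 of 10) summed to between 36.8 and 80.8 CPM in old and between 30.6 and 54.2 CPM in young libraries, highest in old 4 and young 3, the library with the most Fcgr2b in each group. The part of these cells in the receptor values was not tested. Mast cell markers (2 of 5) had 2 counts in old and 5 in young libraries together, and genes of T and NK cells (7 of 8) summed to at most 3.63 CPM in any library.

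Transcripts of other tissues that carry these receptors were set beside Fcgr2b and Fcgrt. Liver sinusoidal endothelium carries Fcgr2b, and its 4 markers summed to between 2.201 and 3.37 CPM in old and between 2.10 and 4.39 CPM in young libraries, with 1 of them, Oit3, at no more than 3 counts in all. Old 2, the library with the most hepatocyte transcripts, was second to old 4 in Fcgr2b, and its sinusoidal markers were at 2.73 CPM. Hepatocytes carry Fcgrt, and the 3 libraries with the most hepatocyte transcripts, old 2, old 3 and young 4, had 19.0, 16.04 and 15.4 CPM of Fcgrt, and the last 2 were the lowest values of their groups. The part of liver transcripts in the values of Fcgr2b and Fcgrt was not tested. Endothelial markers (10 of 10) summed to between 205 and 279 CPM in old and between 179 and 252 CPM in young libraries. Relative to their mean, Fcgrt was at 0.20 ± 0.15 in old and 0.49 ± 0.27 in young mice (SD, n = 4 each) on the log2 scale, with overlapping ranges. Choroid plexus markers (7 of 7) summed to between 47.5 and 888 CPM in old and between 35.2 and 429 CPM in young libraries. The r of Fcgrt with them was 0.54, against 0.18 with the endothelial, -0.68 with the hepatocyte and -0.66 with the granule neuron markers. Old 3 and young 4 also held the highest granule neuron sums of their groups. The part of these cells in the values of Fcgrt was not tested.

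The comparison of females with males was not used to choose the members, and no member passed its test. Under edgeR's quasi-likelihood test with a term for age, 0.0423% of the 14191 genes passed and 0 of the 5 members did, while 676 of all genes, and Fcgr2b of the members, had an unadjusted p under 0.05. The log2 fold change of Fcgr2b, female minus male, was 1.0 ± 0.38 (SE, adjusted p = 0.930). Fcgr2b averaged 10.4 CPM in old females, against 4.13 CPM in old males, and 3.25 CPM in young females, against 2.42 CPM in young males, with 2 animals in each. Without old 4 its value was 0.44. Fcgr3 had 0.56 ± 0.35 and was at 0.02 without old 4, while Fcer1g had 0.24 ± 0.35, Fcgr1 0.06 ± 0.28 and Fcgrt -0.01 ± 0.15, with adjusted p of 0.930, 0.964, 0.996 and 0.999 by edgeR for Fcgr3, Fcer1g, Fcgr1 and Fcgrt.

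Whether the old minus young difference depended on sex was tested as an interaction over the same 8 libraries. No gene passed by edgeR's quasi-likelihood test (0%), with 326 of 14191 at an unadjusted p under 0.05 and 1 gene past the threshold by DESeq2. Among the members the largest estimate was that of Fcgr3, at 1.02 ± 0.68 (SE), followed by Fcgr2b at 0.92 ± 0.82 and Fcgrt at 0.54 ± 0.28, on the log2 scale as female minus male, each with an adjusted p of 0.9999 by edgeR. Fcgrt averaged 20.5 CPM in old females and 18.5 CPM in young females, but 17.0 CPM in old males and 22.1 CPM in young males. The interaction of Fcgrt had the smallest unadjusted p of the members, 0.0801, with 2 animals per age and sex.

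**Figure D4:**
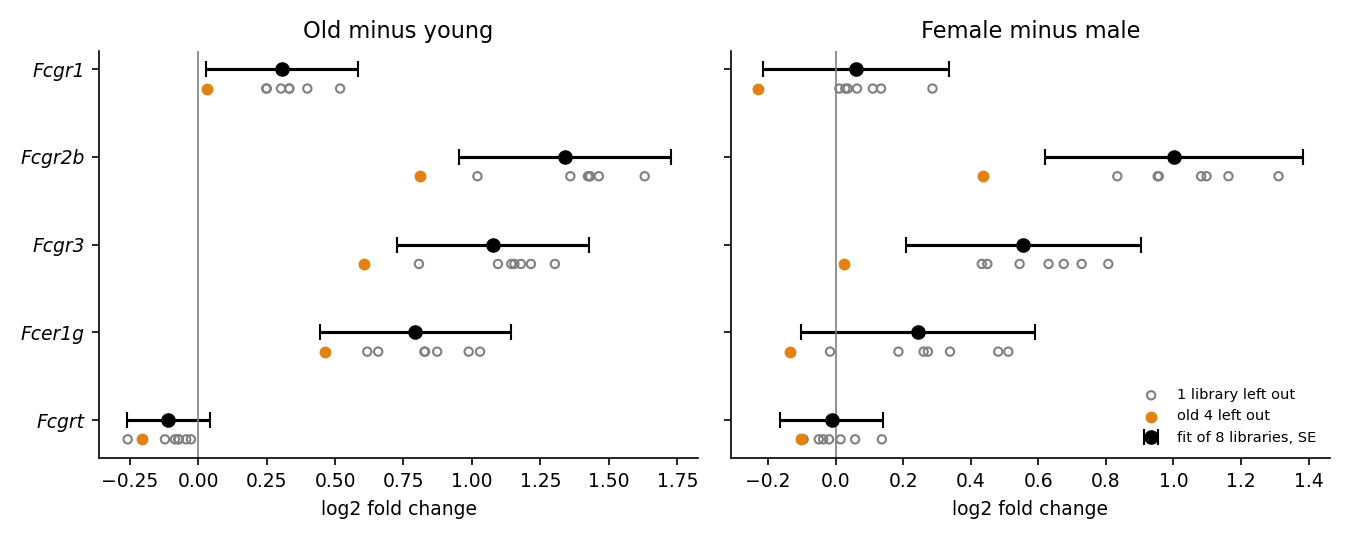
Log2 fold changes of the 5 genes with their SE in the fit of all 8 libraries (black), old minus young at left and female minus male at right, with the values when each library is left out in turn below them (old 4 in orange). Leaving out old 4 gives the lowest old minus young value for the 4 members other than Fcgrt, and brings female minus male of Fcgr3 to 0.02.

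Among the remaining genes of the Fc receptor family, 10 of 14 listed were in the tables and 4 had enough counts for the test, of which 0 passed for age. Fcgr4, the activating IgG receptor encoded between Fcgr2b and Fcgr3, had 1, 3, 0 and 12 counts in old 1 to old 4, against 1, 0, 0 and 0 in young 1 to young 4. The ratio of old to young was 16, with an exact 95% counting interval of 2.48 to 669, and without old 4 it was 5.29 (0.523 to 260), so that 12 of the 16 old counts were those of 1 animal. Fcrls, an Fc receptor-like gene of mouse microglia, had 7.55 ± 5.36 CPM in old and 5.19 ± 1.02 CPM in young mice (SD, n = 4 each). Its log2 fold change was 0.50 ± 0.32 (SE, adjusted p = 0.609 by edgeR), or 0.08 without old 4. Old 1 and old 3, at 3.37 and 3.93 CPM, lay below every young library. Trim21, a cytosolic Fc receptor that targets antibody-bound particles for degradation and is induced by interferon, had 7.24 ± 1.43 in old and 4.32 ± 1.04 CPM in young mice, at 0.75 ± 0.24 (SE, adjusted p = 0.261 by edgeR). Fcrlb, an intracellular Fc receptor-like gene, had a value of -0.31 ± 0.35 (SE).

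The ligands of these receptors could be followed in part. Of 17 genes of antibodies and B lineage cells, 5 were in the tables and none had enough counts for the test, and the antibody constant region genes were not analysed here. Jchain, the joining chain of polymeric antibodies made by plasma cells, had 6, 1, 4 and 27 counts in old 1 to old 4, against 0, 2, 2 and 2 in young 1 to young 4, highest again in old 4. B2m, the light chain of FcRn and of MHC class I, had 51.0 ± 11.4 CPM in old and 27.2 ± 8.87 CPM in young mice (SD, n = 4 each), with no overlap and a log2 fold change of 0.91 ± 0.17 (SE, adjusted p = 0.0757 by edgeR). It passed by DESeq2 and by edgeR without old 2 and without old 2, old 3 and young 4 together, and its adjusted p over the alternatives ran between 0.000248 and 0.270. The FcRn heavy chain gene Fcgrt, at -0.11 ± 0.15 (SE), did not show the higher old values of its light chain gene. Alb, whose product is the other ligand of FcRn, is a liver transcript with 211 counts in old 2 and 61 in young 4. It is itself among the hepatocyte genes summed above.

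Of the 29 listed genes of activating signalling below the receptors, 22 were tested, 19 had positive log2 fold changes and 0 passed for age, with a median of 0.73 (0.50 without old 4) against -0.01 over all genes. Cybb, the membrane subunit of the phagocyte NADPH oxidase, had 7.0 ± 4.98 CPM in old and 1.47 ± 0.575 CPM in young mice (SD, n = 4 each), at 2.24 ± 0.50 (SE, adjusted p = 0.137 by edgeR). Tyrobp, the adaptor DAP12 that pairs with other myeloid receptors as Fcer1g does, had 1.30 ± 0.31, with 4.26 ± 2.29 CPM in old and 1.68 ± 0.606 CPM in young mice. Pik3cg, a phosphoinositide kinase of leukocytes, had 7.41 ± 1.79 in old and 3.40 ± 0.356 CPM in young mice with no overlap, at 1.11 ± 0.22 (SE, adjusted p = 0.0799 by edgeR). Syk, the kinase that docks on the phosphorylated gamma chain, had 4.90 ± 2.43 in old and 2.64 ± 1.21 CPM in young mice, at 0.90 ± 0.42. Of 7 other receptors listed as partners of Fcer1g, such as the lectin Clec4e, 6 were in the tables and none had enough counts.

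Of the 16 inhibitory genes, 14 were tested, 11 had positive values and 0 passed, with a median of 0.66 (0.40 without old 4). Inpp5d, the phosphatase that acts on the Fcgr2b signal, had 5.87 ± 2.72 CPM in old and 3.42 ± 0.267 CPM in young mice (SD, n = 4 each), at 0.77 ± 0.29 (SE, adjusted p = 0.362 by edgeR). Lilrb4a and Pirb, inhibitory receptors of myeloid cells, had 2.32 ± 0.55 and 2.00 ± 0.47. Both had few counts in young mice, 1 to 5 and 2 to 6 per library, so the sizes of these values are uncertain. Lair1, an inhibitory collagen receptor, had 16.6 ± 1.49 in old and 10.8 ± 1.73 CPM in young mice with no overlap, at 0.62 ± 0.14 (SE, adjusted p = 0.125 by edgeR).

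Of 12 listed regulators of myeloid Fc receptor genes, 11 were tested, 10 had positive values and 0 passed, with a median of 0.67 (0.46 without old 4). Spi1, which encodes PU.1, did not reach the filter, with 7, 10, 7 and 21 counts in old 1 to old 4, against 4, 8, 8 and 6 in young 1 to young 4. Old over young it stood at 1.73, exact 95% counting interval 1.04 to 2.92, and at 1.22 (0.670 to 2.21) without old 4. Runx1 and Irf8, further factors of the myeloid lineage, had log2 fold changes of 0.97 ± 0.25 and 1.03 ± 0.29 (SE), each with no overlap between old and young values.

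**Figure D5:**
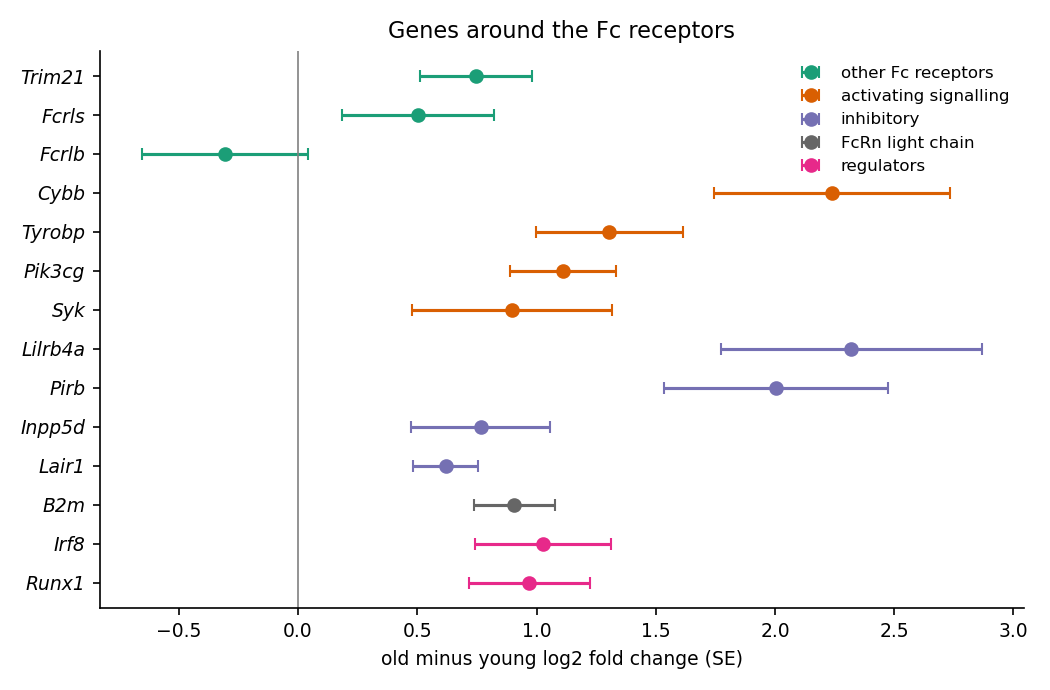
Old minus young log2 fold changes with SE for the tested genes named around the Fc receptors, grouped as other Fc receptors, activating signalling, inhibitory genes, the FcRn light chain and regulators. All but Fcrlb lie above 0, and edgeR's test over 14191 genes called none of them at an adjusted p of 0.05.

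Over these lists together, 53 genes that are not members were tested, 45 had positive values and 27 had an unadjusted p under 0.05, where 11.0% of all genes did, but 0 passed after adjustment by edgeR. DESeq2 passed 4 of them, with B2m, Pik3cg and Cybb among them, and edgeR passed 4 without old 2, B2m and Pik3cg included. Many of these genes are myeloid, and the part of the higher microglia markers in old libraries in their values was not tested. The lists were chosen with earlier results of these data known, so nothing is read from these counts or from the medians of the lists.

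The genes whose pattern over the 8 libraries was most like each member, among 13234 genes averaging 1 or more in log2 CPM, were named by Pearson's r of log2 CPM, as a description with no test. For Fcgr3 they were Ctsd, the lysosomal protease cathepsin D, at 0.98, Ly6e at 0.98, Fcgr2b at 0.97 and Serpina3n at 0.96. For Fcgr2b they were Ctsd at 0.98, Serpina3n at 0.97, Fcgr3 at 0.97 and Cd14, the myeloid coreceptor for lipopolysaccharide, at 0.96. For Fcer1g they were Slfn9, Gbp7, Ctnnd1 and Man2b2, at 0.96, 0.95, 0.94 and 0.94. For Fcgr1 they were Zkscan5, Mustn1, Ripk1 and Nos3, between 0.95 and 0.91, and for Fcgrt Slco5a1, Mrgpre, Tradd and Pgpep1, between 0.96 and 0.94. Taken as deviations from the age means, the nearest were Thnsl2, Morn2, Invs and Abracl to Fcgr3, Vwf, F13a1, Ctsd and Sh3bp4 to Fcgr2b, Il10ra, Gbp7, Bmper and Slfn9 to Fcer1g, Ripk1, Slc23a1, Tmed4 and Pigv to Fcgr1, and Mylk, Tec, Mrgpre and Trpv3 to Fcgrt, each at an r of at least 0.94. Among so many genes and 8 libraries, values of this size occur for genes of many kinds.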

How the data were processed

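Raw counts per gene, 1 table per library, were deposited by the authors as whole numbers, not normalized, per the file headers. The submitters' processing notes name Trimmomatic 0.39, STAR 2.7.5b, SAMtools 1.10, Picard 2.20.8, featureCounts and the builds GRCm38 and mm10. For annotation, strand setting and multiply mapping reads, the sources used here give nothing. RNA came from frozen tissue by Trizol and columns with DNase digestion, and libraries from a ribosomal depletion kit, per the labels' protocols. Spreadsheet dates replaced 24 gene names in all but 1 table, so names were taken from that one, whose other names matched row by row. None of the 12 pairs of libraries within an age agreed within sampling noise by chi-square over genes.

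Genes were kept by filterByExpr over the 4 age-by-sex cells (minimum 10 counts), which left 14191, and scaled by TMM. Log2 CPM used a prior count of 2. edgeR 4.0.16 in R 4.3.3 fitted age and sex (quasi-likelihood, robust, newer dispersion method), with Benjamini-Hochberg adjustment over all genes and a threshold of 0.05. SE was obtained by dividing the absolute log2 fold change by the root of the F statistic. Libraries are biological replicates, per the series' design text. In a check on simulated counts, with the random seed kept, the share of false calls came out above the nominal threshold for age and for sex. With another seed the share for age was below that threshold, so it varied between runs. Calls over all genes may be liberal. Alternatives used DESeq2 1.42.0, limma 3.58.1, other scaling, filters and dispersions, no second factor, a replicate block and libraries left out, and a prior count of 0.5. Coordinates and exon lengths are from GENCODE M21 (GRCm38).

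The members and lists were chosen with earlier results of these data known. Named were the 5 members, Fcgr4, Fcrls, Tyrobp, Syk, Inpp5d, B2m and Spi1, up to 3 genes of smallest p per pathway list with any past the threshold, and the 4 genes most like each member by each measure. Jchain and marker genes named singly were picked after their values were seen. Some genes that the rule or the lists hold are not reported here.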

Additional observations from a re-analysis of the deposited data

Results flagged for a closer look

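In groups of 4 libraries, a value was singled out where its gap to the nearest other value was too large a part of the group's range by Dixon's 95% critical value, and chance singles out about 1 group in 20. Of 80 groups examined 9 were singled out. Old 4 was high for Fcgr3, at 18.5 CPM against 6.58 to 7.34 CPM in the other old libraries. It was high also for Inpp5d, at 9.94 CPM against 4.32 to 4.81 CPM, for Spi1, at 3.31 CPM against 1.101 to 1.44 CPM, and for Pirb, at 3.95 CPM against 1.87 to 1.93 CPM. Young 3 was high for Fcgr2b, at 4.26 CPM against 2.24 to 2.48 CPM in the other young libraries, and for the ratio of Fcgr2b to Fcgr1 plus Fcgr3, at 0.481 against 0.291 to 0.314. The remaining 3 groups rest on single counts or a handful: Fcgr4 in young 1, at 0.155 CPM with 0 elsewhere in the group, and the mast cell markers in old 1, at 0.321 CPM, and young 1, at 0.775 CPM. What sets old 4 or young 3 apart was not tested.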

How the results depend on the processing

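Old minus young values of the 5 members kept their sign under each alternative that could be fitted. With each library left out in turn they ran between 0.03 and 0.52 for Fcgr1, 0.81 and 1.63 for Fcgr2b, 0.60 and 1.30 for Fcgr3, 0.46 and 1.03 for Fcer1g and -0.26 and -0.03 for Fcgrt. Without old 2, old 3 and young 4 together, Fcgr2b was at 1.40, Fcer1g at 1.35 and Fcgr1 at 0.58. Only old 1 and old 4 remained of the old mice. There edgeR called 184 genes, Fcgr2b and Fcer1g among them, and the share of genes tested is not given for that fit. Nothing is read from these calls, since the members were chosen on this contrast. The filter of 50 counts in 4 libraries kept Fcgrt alone of the members.

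The number of genes past the threshold for age was 36 without scaling beyond the library total, 125 by DESeq2, 1 by limma-voom, 26 with the older dispersions, 1 with the replicate block and 184 without old 2, old 3 and young 4, against 17, and between 0 and 63 with 1 library left out. For sex it was 40 without those 3 libraries and between 4 and 46 with 1 left out, against 6. For the interaction it was 1 by DESeq2 and between 0 and 2 with 1 left out, against 0. Of the pathway genes 4 passed by DESeq2, 11 without those 3 libraries and between 0 and 4 with 1 left out, against 0. The causes were not tested.

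Small sex differences changed sign. Fcgr1 was at -0.12 by limma-voom and -0.22 with the replicate block, and between -0.23 and 0.29 with 1 library left out. Fcer1g was at -0.039 by limma-voom, -0.079 with the block and between -0.13 and 0.51. Fcgrt was at 0.071 with the block, 0.096 without the 3 libraries and between -0.10 and 0.14. The interaction ran between -0.53 and 0.64 for Fcgr1 and between -0.43 and 0.92 for Fcer1g. Without old 4, an alternative chosen after seeing the data, r was -0.24 between Fcgr1 and Fcgr2b, -0.15 between Fcgr1 and Fcgr3, and -0.46, -0.075 and -0.40 between Fcgrt and Fcgr1, Fcgr2b and Fcer1g. Same-numbered old and young libraries share only a number: their deviations correlated at 0.17, -0.24, -0.07 and -0.27. Members other than Fcgrt had 12 to 117 counts per library, which limits all their values.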

Other observations

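The 14-base run that the start-site windows of Fcgr1 and Fcgr3 share was found in 2 further genes of the 32851 windows, Dock2, a Rac activator of leukocytes that is also on the list of activating signalling, and Entpd1, which encodes the ectonucleotidase CD39 of microglia. Both were looked at because of that match. Dock2 had 2.57 ± 0.718 CPM in old and 1.35 ± 0.355 CPM in young mice (SD, n = 4 each), with all 4 old values, 1.87 to 3.31 CPM, above the young ones, 0.931 to 1.72 CPM. Entpd1 had 10.8 ± 2.54 CPM in old and 7.30 ± 1.81 CPM in young mice, with overlapping ranges. Their log2 fold changes were 0.90 ± 0.35 and 0.55 ± 0.22 (SE), and neither passed by edgeR (adjusted p = 0.371 and 0.376). A shared run of letters is a description and does not show that a factor binds there.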
